A study of Mus musculus with 6 samples.

Results

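The genes described here are the MHC class I heavy chains H2-K1, H2-D1, H2-Q4, H2-Q6, H2-Q7 and H2-T23, their partner B2m and the peptide-loading genes Tap1, Tap2 and Tapbp, 10 of the 53090 gene rows. They were chosen by symbol, and every symbol had a single row. RNA came from mouse neutrophils of liver (3 libraries) and of blood (3 libraries). All 6 libraries came from mice given a diet with 3,5-diethoxycarbonyl-1,4-dihydrocollidine (DDC), a porphyrinogenic compound that injures bile ducts, for 1 week, so no group was free of the diet. Cells were selected on Ly6G, a surface protein of mouse neutrophils, with magnetic beads, from liver suspensions after a Percoll gradient and from blood after lysis, so tissue and preparation cannot be told apart. No genotype, strain, sex or age was given, and the MHC haplotype, on which the alignment of reads to the polymorphic heavy chains depends, is not given in the sources used here.

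MHC class I molecules carry peptides from inside the cell to its surface, where CD8 T cells and natural killer cells read them. A heavy chain pairs with B2m, the invariant light chain, and takes up a peptide that the transporter made of Tap1 and Tap2 has moved into the endoplasmic reticulum, with tapasin, the product of Tapbp, holding the empty molecule to the transporter. H2-K1 and H2-D1 encode the classical, broadly expressed heavy chains, whereas H2-Q4, H2-Q6, H2-Q7 and H2-T23 are nonclassical. H2-Q7 and H2-Q6 belong to the Qa-2 group, and H2-T23 encodes Qa-1, which presents a leader peptide of other class I chains to the NKG2 receptors of natural killer cells. Neutrophils, like other nucleated cells, express class I.

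The heavy chains lie together on chromosome 17 (GRCm38), from H2-K1 at 33996017 to 34000347 and H2-D1 at 35262730 to 35267499 to H2-T23 at 36029773 to 36032855, with H2-Q4, H2-Q6 and H2-Q7 between 35379617 and 35443773. Tapbp, Tap1 and Tap2 are on the same chromosome, and B2m is on chromosome 2 from 122147686 to 122153083. The coordinates span the whole genes, exons and introns.

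Promoter sequence (RefSeq, GRCm38.p6, 250 bases before to 50 after the start site) was matched by symbol for 9 of the 10 genes, all except Tap2. The 180 bases before the RefSeq start site are shown, 5′ to 3′ in the transcribed direction, for the 6 heavy chains, whose levels moved in different directions, and for B2m. They are chr17:34000348-34000527 and chr17:36032702-36032881 on the minus strand, and chr17:35262914-35263093, chr17:35379437-35379616, chr17:35424670-35424849, chr17:35438975-35439154 and chr2:122147507-122147686 on the plus strand. The gene coordinates above, from GENCODE, begin further upstream for H2-D1 and H2-T23. The H2-D1 stretch lies wholly inside them and the H2-T23 stretch in part, so word positions depend on the start site used. Capitals mark words searched on both strands: GGGATTCCC, a form of the NF-kB element of class I promoters, TTTCACTTC, the class I form of the interferon-stimulated response element, the general form of that element (TTTC and TTTC with NN between), and TGACG, the half-site of a cyclic AMP response element. No match overlapped another.
H2-K1: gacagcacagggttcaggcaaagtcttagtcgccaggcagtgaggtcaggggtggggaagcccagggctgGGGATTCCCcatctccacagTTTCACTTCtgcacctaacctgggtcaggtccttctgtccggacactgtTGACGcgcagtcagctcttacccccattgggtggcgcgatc
H2-D1: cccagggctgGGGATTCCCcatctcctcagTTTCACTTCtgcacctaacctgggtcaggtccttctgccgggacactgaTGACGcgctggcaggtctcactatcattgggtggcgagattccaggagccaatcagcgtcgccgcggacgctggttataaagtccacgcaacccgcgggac
H2-Q4: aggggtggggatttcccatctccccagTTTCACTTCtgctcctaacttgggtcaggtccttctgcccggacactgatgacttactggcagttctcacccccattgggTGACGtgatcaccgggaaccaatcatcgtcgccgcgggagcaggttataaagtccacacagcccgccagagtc
H2-Q6: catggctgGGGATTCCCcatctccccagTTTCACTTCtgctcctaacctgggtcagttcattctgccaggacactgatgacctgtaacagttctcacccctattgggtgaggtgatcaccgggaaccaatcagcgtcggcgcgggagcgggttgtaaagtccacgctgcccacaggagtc
H2-Q7: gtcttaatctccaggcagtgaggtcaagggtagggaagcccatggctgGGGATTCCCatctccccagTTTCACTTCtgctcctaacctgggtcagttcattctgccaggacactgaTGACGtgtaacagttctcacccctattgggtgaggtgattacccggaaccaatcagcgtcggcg
H2-T23: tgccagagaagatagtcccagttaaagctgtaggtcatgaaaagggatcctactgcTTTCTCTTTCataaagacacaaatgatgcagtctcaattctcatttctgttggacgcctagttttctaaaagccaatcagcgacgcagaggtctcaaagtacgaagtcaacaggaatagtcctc
B2m: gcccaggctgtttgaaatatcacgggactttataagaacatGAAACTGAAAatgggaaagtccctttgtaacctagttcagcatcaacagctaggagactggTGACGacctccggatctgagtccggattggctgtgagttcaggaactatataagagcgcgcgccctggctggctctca

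H2-K1, H2-D1, H2-Q6 and H2-Q7 held the first word, and these with H2-Q4 held the second. Those words were present in 0.353% and 0.505% of all 32851 promoter windows of the same length. H2-T23 and B2m instead held the general form, which was in 3.44% of windows, and in B2m it lies on the opposite strand and is printed as its reverse complement. TGACG was found in 6 of the 9 windows, H2-K1, H2-D1, H2-Q4, H2-Q7, B2m and Tap1, against 20.8% of all. The Tapbp window held none of the searched words. The H2-Q6 and H2-Q7 windows were 97.7% identical over 260 aligned bases, so related promoters are not separate observations. A match describes letters, not a bound site, and a missing word does not show that the element is absent. Only these spellings were searched, and the H2-Q4 stretch reads GGGATTTCCC, a near spelling of the first word.

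**Figure D1:**
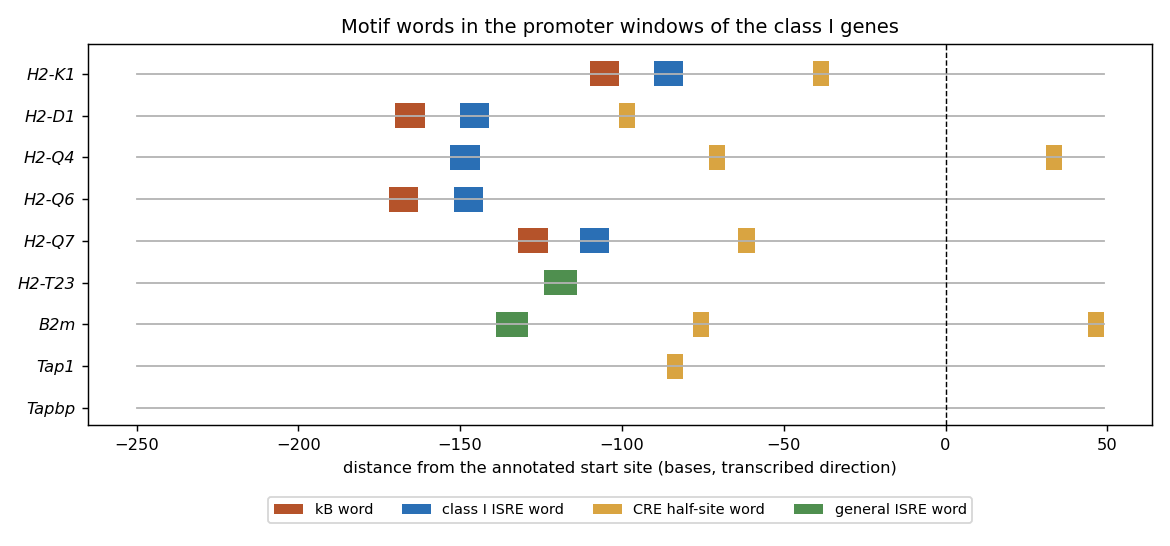
Position of the searched words (coloured boxes) in the promoter windows of 9 genes, with the distance from the RefSeq start site in bases on the horizontal axis and the start site as a dashed line. In the heavy chains that hold both, the kB word lies upstream of the class I ISRE word. Of the exact words searched, H2-T23 held only the general ISRE form and B2m that form and TGACG. Other spellings were not searched.

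Heavy-chain genes are similar enough for reads to be shared, and RSEM divides such reads among genes. Of the distinct stretches of 50 bases in the annotated transcripts, H2-Q6 shared 32.0% with transcripts of other genes, H2-Q7 26.4%, H2-Q4 21.8%, H2-T23 13.6%, H2-D1 12.8% and H2-K1 9.63%. H2-Q7 was the closest partner of H2-Q6, with 13.9% of its stretches in common. H2-Q10, a further class I chain, was the closest partner of H2-Q7 (14.0%) and of H2-K1 (5.18%). B2m shared 0 of 811 stretches and its deposited values were whole numbers (within 1e-09) in all 6 libraries, while those of H2-D1, H2-Q4, H2-Q6, H2-Q7 and H2-T23 were fractional in all 6. Those of H2-K1 were whole in 1 of 6. The values of the heavy chains, the Q genes most, are therefore uncertain as to which gene the reads came from.

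Total counts per library ran from 13778681 to 17579669 in liver and from 13054673 to 14403803 in blood. The selected cells carried neutrophil markers in both groups, such as S100a8 and Csf3r, but the summed level of 9 of them was 7745 to 13471 CPM in liver and 21045 to 32286 CPM in blood, with 8 of 9 called lower (CPM is the count scaled to library size with TMM factors). Summed markers of Kupffer cells and macrophages were 164 to 433 CPM in liver and 41.0 to 159 CPM in blood (4 of 8 tested called higher), those of monocytes 1038 to 1516 and 358 to 469 CPM (5 of 7) and those of dendritic cells 34.2 to 90.3 and 8.15 to 17.5 CPM (4 of 7). Hepatocyte markers summed to 271 to 476 CPM in liver and 108 to 151 CPM in blood (6 of 6 tested called higher). Trf made most of that sum in every library, at 175 to 255 CPM in liver and 108 to 146 CPM in blood. Alb had 7.25 to 148 and 0.088 to 2.44 CPM. Liver endothelial markers summed to 19.6 to 33.6 and 14.8 to 18.3 CPM (3 of 4 called higher). Biliary epithelial markers summed to 46.1 to 72.6 and 11.2 to 14.6 CPM, with 1 called higher and 1 lower. Spp1 made most of the biliary sum in liver (43.0 to 68.3 CPM). Krt7 was lower in liver, at 2.06 to 3.85 CPM against 8.41 to 12.7 CPM in blood. Krt19 and Sox9 were at 0 in blood, and at most 1.11 and 0.42 CPM in liver. T and NK cell markers summed to 5.18 to 13.8 CPM in liver and 6.66 to 11.9 CPM in blood, B and plasma cell markers to 55.8 to 74.3 and 47.3 to 206 CPM, platelet markers to 7.57 to 15.8 and 35.0 to 208 CPM and erythroid transcripts to 142 to 2726 and 366 to 33632 CPM. No marker was at 0 throughout the liver libraries, and in blood Jchain was, besides the biliary pair. Mitochondrial genes took 8.997% to 12.5% of counts in liver and 4.30% to 6.69% in blood, and 19238 to 21540 genes against 17822 to 18558 had a count, neither overlapping. The part of these shares in the results was not tested. Nucleated cells in general express class I, so these values stand beside every result below. In bulk RNA, fewer cells of a type and less RNA per cell cannot be told apart.

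The comparison of liver with blood asked how class I transcripts of neutrophils in the injured organ differed from those in circulation. The 10 genes did not move as a block. H2-K1, H2-Q4, H2-Q6 and H2-Q7 were higher in liver, H2-T23 was lower, and H2-D1, B2m, Tap1, Tap2 and Tapbp did not pass the test. By edgeR's quasi-likelihood test over 13458 genes, 4 of 10 were called higher, where 17.4% of all tested genes were, and 1 was called lower, where 14.2% were, so that 5 of 10 were called in either direction beside 31.6% of all. Their median log2 fold change was -0.05, beside 0.04 for all tested genes. The groups did not overlap with liver above blood in 4 of 10 (25.8% of all tested genes) and with liver below blood in 3 (22.7%), and so in either direction for 7 of 10 (48.5%).

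**Figure D2:**
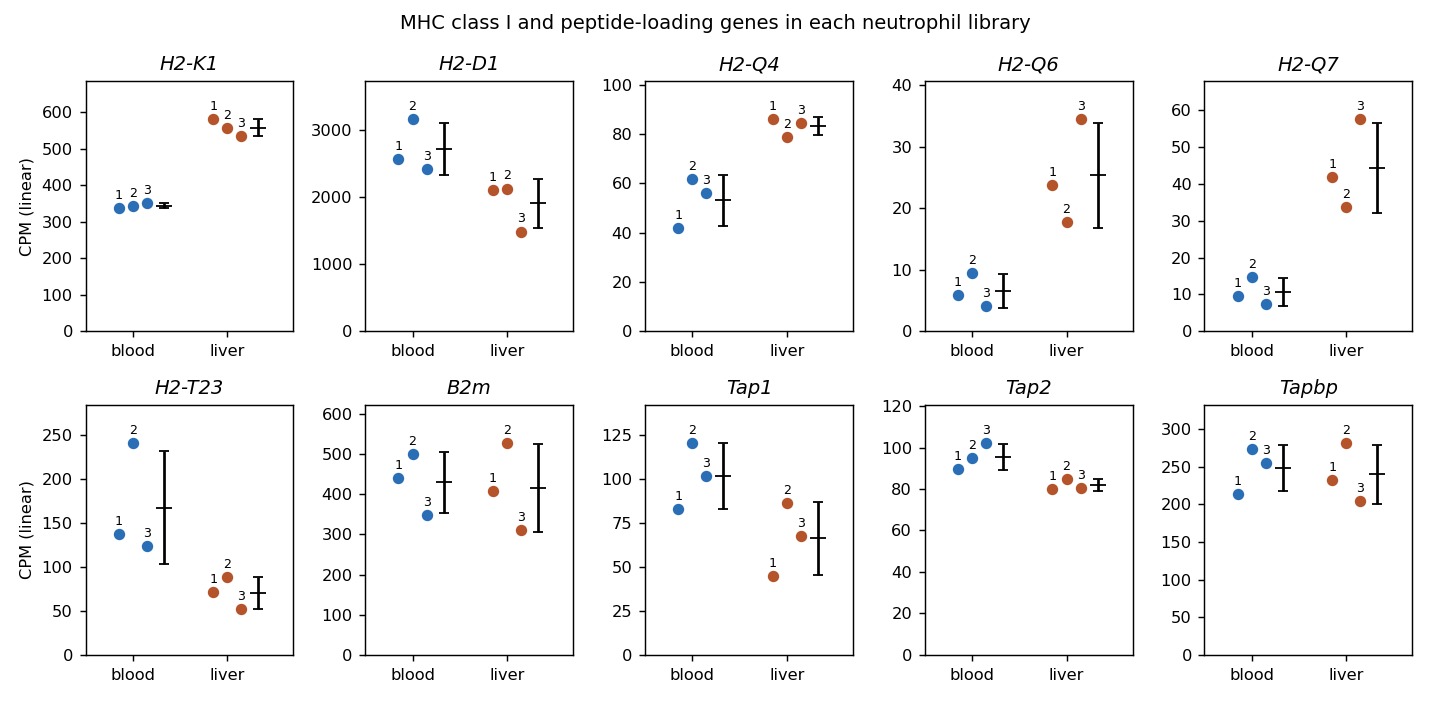
Level of each of the 10 genes in every library in CPM on a linear axis from 0, with replicate numbers as names, and the mean ± SD (n = 3) as black bars. H2-K1, H2-Q4, H2-Q6 and H2-Q7 sit higher in all 3 liver libraries, H2-D1, H2-T23 and Tap2 sit lower, and B2m, Tap1 and Tapbp overlap.

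H2-K1, a classical heavy chain, had 580, 555 and 533 CPM in liver 1, 2 and 3 and 337, 343 and 350 CPM in blood 1, 2 and 3. The libraries of each group lay close together and the groups were well apart. The means ± SD (n = 3 each) were 556 ± 23.4 and 344 ± 6.56 CPM, a 1.62-fold rise with a log2 fold change of 0.70 ± 0.18 (SE; edgeR adjusted p = 0.016). The call was lost without liver 1, blood 1 or blood 3 (adjusted p 0.054, 0.075 and 0.066), with log2 fold changes of 0.64 to 0.66, and without liver 3 and blood 1 together (0.69, adjusted p = 0.094). Liver 3, the library with the highest Kupffer cell, monocyte and dendritic cell marker sums, had the lowest H2-K1 of the liver libraries. The part of those cells in the H2-K1 result was not tested.

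H2-D1, the other classical heavy chain, was the most abundant of the 10 and went the other way in sign. It had 2115, 2133 and 1490 CPM in liver 1, 2 and 3 and 2579, 3169 and 2423 CPM in blood 1, 2 and 3. Every liver library lay below every blood library, with liver 3 the lowest. The log2 fold change was -0.51 ± 0.24 (SE, 95% confidence interval -1.05 to 0.04), which did not pass the test (edgeR adjusted p = 0.14). Liver 3 also had the lowest sum of neutrophil markers, 7745 CPM, and blood 2 both the highest H2-D1 and the highest sum, 32286 CPM, and the part of this in the result was not tested.

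Within a library the ratio of H2-K1 to H2-D1 counts does not depend on library scaling, but can depend on how shared reads were divided. That ratio was 0.274, 0.260 and 0.358 in liver 1, 2 and 3, and 0.131, 0.108 and 0.145 in blood 1, 2 and 3. The lowest liver ratio exceeded the highest blood ratio, which follows from the opposite separation of both genes in CPM and is no further test. The balance of counts thus leaned more to H2-K1 in each liver library, although H2-D1 alone did not pass the test. Of the counts of the 6 heavy chains, H2-K1 took 20.9% ± 2.45 in liver and 10.5% ± 1.47 in blood (SD, n = 3 each), and H2-D1 took 70.7% ± 3.93 and 82.4% ± 0.591.

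**Figure D3:**
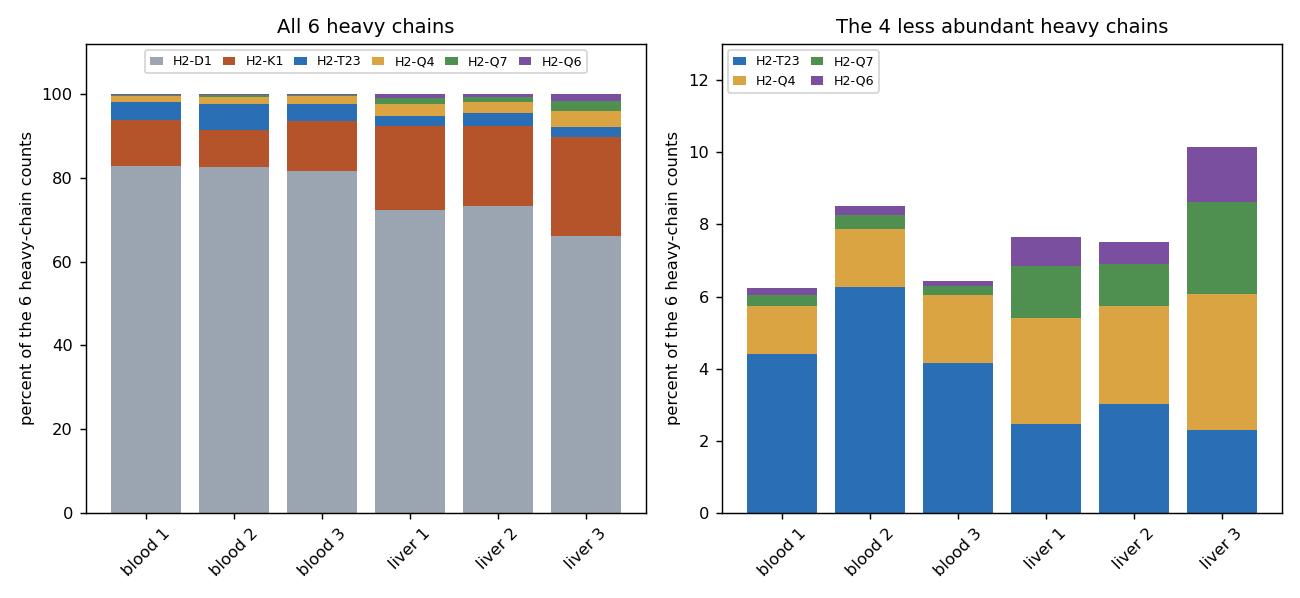
Share of each heavy chain in the summed counts of the 6 heavy-chain genes, in percent, for each library (left, all 6 chains; right, the 4 less abundant ones on a wider scale). H2-K1 takes 19.1% to 23.7% in the liver libraries and 8.94% to 11.8% in the blood libraries, and the H2-T23 share is smaller in each liver library than in any blood library.

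The summed level of the 6 heavy chains, which does not depend on how reads were divided among them, was 2919, 2906 and 2252 CPM in liver 1, 2 and 3 and 3111, 3839 and 2964 CPM in blood 1, 2 and 3. The sum was lower in every liver library, although the distance between liver 1 and blood 3 was small. H2-D1 dominated it. With the further class I chains H2-Q10, H2-T24, H2-T22, H2-T10, H2-M3 and H2-Q1 added, the liver sum was 3026 ± 447 CPM and the blood sum 4207 ± 527 CPM (mean ± SD, n = 3 each).

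The Qa-2 genes were those of the 10 with the widest differences between the groups. H2-Q7 had 41.9, 33.6 and 57.6 CPM in liver 1, 2 and 3 and 9.63, 14.7 and 7.32 CPM in blood 1, 2 and 3, and all liver libraries were above all blood libraries. The rise was 4.21-fold, with a log2 fold change of 2.07 ± 0.32 (SE; edgeR adjusted p = 0.0018). H2-Q6 had 23.8, 17.7 and 34.5 CPM in liver 1, 2 and 3 and 5.89, 9.46 and 4.03 CPM in blood 1, 2 and 3. It rose 3.93-fold, with a log2 fold change of 1.98 ± 0.38 (SE; edgeR adjusted p = 0.0048). The libraries of both genes fell in one order, with liver 3 highest and blood 3 lowest, and reads can be split between the pair. Their sum, which is free of reads exchanged between this pair, had a liver mean of 69.7 ± 20.7 CPM and a blood mean of 17.02 ± 6.55 CPM (SD, n = 3 each).

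The liver order of H2-Q6 and H2-Q7, with liver 3 above liver 1 above liver 2, was also that of the marker sums of Kupffer cells and macrophages (433, 233 and 164 CPM), of monocytes (1516, 1214 and 1038 CPM), of dendritic cells (90.3, 59.3 and 34.2 CPM) and of liver endothelium (33.6, 32.5 and 19.6 CPM). In blood the order of both genes was blood 2 above blood 1 above blood 3, that of the B and plasma cell sum (206, 105 and 47.3 CPM), while the Kupffer cell and macrophage sum was highest in blood 1 (159 CPM). Their part in the result was not tested. Without liver 3 and blood 1, both genes were still called, at log2 fold changes of 1.60 (adjusted p = 0.048) for H2-Q6 and 1.75 (adjusted p = 0.021) for H2-Q7.

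H2-Q4, a further nonclassical heavy chain of the Q region, had 86.0, 78.9 and 84.5 CPM in liver 1, 2 and 3 and 41.7, 61.9 and 55.9 CPM in blood 1, 2 and 3. The liver libraries were close to each other and above all blood libraries. Its rise was 1.56-fold, with a log2 fold change of 0.64 ± 0.20 (SE; edgeR adjusted p = 0.033). Leaving out any single library other than blood 2 ended the call (adjusted p 0.062 to 0.14), with the smallest log2 fold change, 0.45, when blood 1 was left out, and so did leaving out liver 3 and blood 1 together (0.46, adjusted p = 0.20).

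H2-T23, the Qa-1 gene, had 71.9, 87.9 and 52.0 CPM in liver 1, 2 and 3 and 137, 241 and 123 CPM in blood 1, 2 and 3. Blood 2 stood high, and the highest liver library was below the lowest blood library. It fell 2.36-fold, with a log2 fold change of -1.24 ± 0.29 (SE; edgeR adjusted p = 0.012), and the call held in each of 16 alternatives (adjusted p 6.5e-07 to 0.046). The H2-T23 order within each group was that of the B and plasma cell marker sum, which was 74.3, 64.8 and 55.8 CPM in liver 2, 1 and 3 and 206, 105 and 47.3 CPM in blood 2, 1 and 3. The neutrophil marker sum had the same order in liver (13471, 10256 and 7745 CPM). The part of either in the result was not tested. With H2-Q7 higher and H2-T23 lower, the ratio of H2-Q7 to H2-T23 counts was 0.691 ± 0.374 in liver and 0.0636 ± 0.00582 in blood (SD, n = 3 each). Its lack of overlap follows from the opposite separation of both genes in CPM.

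B2m, the light chain that all of these heavy chains need, had 407, 528 and 311 CPM in liver 1, 2 and 3 and 440.8, 500.0 and 348 CPM in blood 1, 2 and 3. The groups overlapped almost fully. Its log2 fold change was -0.05 ± 0.24 (SE, 95% confidence interval -0.59 to 0.50; edgeR adjusted p = 0.90), which leaves room for a moderate change either way.

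The peptide transporter genes leaned lower in liver without passing the test. Tap1 had 44.6, 86.3 and 67.3 CPM in liver 1, 2 and 3 and 82.6, 120 and 102 CPM in blood 1, 2 and 3. Liver 2 overlapped the blood range and liver 1 was lowest. The log2 fold change was -0.62 ± 0.26 (SE; edgeR adjusted p = 0.095), and Tap1 was called lower without liver 2 (-0.87, adjusted p = 0.044) and with no filter on low counts (-0.64, adjusted p = 0.028). Tap2, the other half-transporter, had 80.0, 85.0 and 80.6 CPM in liver 1, 2 and 3 and 89.5, 94.9 and 102 CPM in blood 1, 2 and 3. The groups did not overlap but lay close, with a log2 fold change of -0.22 ± 0.16 (SE, 95% confidence interval -0.59 to 0.15; edgeR adjusted p = 0.33).

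Tapbp, the tapasin gene, had 233, 282 and 205 CPM in liver 1, 2 and 3 and 214, 274 and 255 CPM in blood 1, 2 and 3, with overlapping groups. Its log2 fold change was -0.05 ± 0.20 (SE, 95% confidence interval -0.49 to 0.39; edgeR adjusted p = 0.88). The 95% confidence interval of Tap1 was -1.20 to -0.04, but its test did not pass after adjustment over all genes.

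Levels of different genes were compared per kilobase of annotated exon length. H2-D1 came first in both groups, at 742 ± 142 CPM per kb in liver and 1056 ± 153 in blood (SD, n = 3 each), followed by B2m at 483 ± 127 and 499 ± 89.2, H2-K1 at 189 ± 7.97 and 117 ± 2.23 and Tapbp at 66.1 ± 10.7 and 68.3 ± 8.42. H2-D1 and B2m overlapped in liver (lowest H2-D1 578, highest B2m 614 CPM per kb) but not in blood. In liver H2-Q4 (32.0 CPM per kb), H2-T23 (24.4) and Tap2 (21.7) followed, each overlapping the next, and then H2-Q6 (12.2), Tap1 (12.1) and H2-Q7 (10.4), which were not separated. In blood H2-T23 (57.8 CPM per kb) overlapped Tapbp, then came Tap2 (25.3), H2-Q4 (20.5) and Tap1 (18.5), each overlapping the next, with H2-Q6 (3.10) and H2-Q7 (2.48) last and overlapping each other. H2-T23 thus stood above H2-Q4 in blood, while in liver their values met. The summed heavy-chain level was 2.14 ± 0.311 times that of B2m per kb in liver and 2.54 ± 0.240 times in blood (SD, n = 3 each), with overlapping libraries.

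Other class I and class I-like chains were called higher in 1 and lower in 3 of 9 tested of 15 listed, with a median log2 fold change of -0.05. Beside this list and those below, 17.4% of all tested genes were called higher and 14.2% lower. H2-Q10, known as a secreted class I chain made by hepatocytes, stood at 264 ± 56.9 CPM for liver against 718 ± 13.5 CPM for blood (SD, n = 3 each), a log2 fold change of -1.44 ± 0.22 (SE; edgeR adjusted p = 0.0016). The hepatocyte marker sum, 271 to 476 CPM in liver and 108 to 151 CPM in blood, was higher where H2-Q10 was lower. Most of that sum was Trf in every library, while Alb had 7.25 to 148 CPM in liver and 0.088 to 2.44 CPM in blood. The part of hepatocyte transcripts in the H2-Q10 level was not tested. H2-Q10 shared 19.0% of its 50-base stretches with other genes, most of them with H2-Q7 (14.0%). H2-T24 and H2-T22, neighbours of H2-T23, fell as well, with log2 fold changes of -1.68 ± 0.32 and -0.98 ± 0.23 (SE; edgeR adjusted p = 0.0046 and 0.011). H2-T22 shared 34.5% of its stretches, nearly all with H2-T10. Mr1, which presents vitamin metabolites, was called higher from 1.28 against 0.230 CPM, a call that ended when any single library was left out (edgeR adjusted p 0.070 to 0.17), when liver 3 and blood 1 were (0.086), with no filter on low counts (0.11) and with limma voom (0.072).

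Partners in the endoplasmic reticulum were called higher in 3 of 10 and lower in 0, with a median log2 fold change of 0.35. Canx, the chaperone calnexin that folds new heavy chains, stood at 232 ± 37.3 CPM for liver against 97.0 ± 7.50 CPM for blood (SD, n = 3 each; log2 fold change 1.26 ± 0.19, SE; edgeR adjusted p = 0.0016). Calr, calreticulin of the loading complex, ran from 216 to 345 CPM in the liver libraries and from 123 to 166 CPM in those of blood (log2 fold change 0.98, edgeR adjusted p = 0.011), a call lost without blood 3 (0.055). Hspa5, a general chaperone of that compartment, had a log2 fold change of 1.20. These 3 serve many client proteins besides class I. Pdia3, which bridges to tapasin, and Erap1, which trims peptides to length, had log2 fold changes of 0.40 and 0.61 and did not pass (edgeR adjusted p = 0.12 and 0.19).

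The proteasome genes that cut the peptides differed among themselves. Of 7 immunoproteasome and activator genes 1 was called higher and 1 lower, with a median of 0.01. Psmb9 stood at 14.9 ± 1.19 CPM for liver against 28.6 ± 3.56 CPM for blood, with non-overlapping groups (log2 fold change -0.94 ± 0.23, SE; edgeR adjusted p = 0.012). Psmb10 was higher instead, at 12.6 ± 2.23 CPM for liver against 5.52 ± 0.393 CPM for blood (log2 fold change 1.20 ± 0.29, SE; edgeR adjusted p = 0.014), with an adjusted p of 0.0503 without liver 2. Psmb8 had a log2 fold change of -0.35 (edgeR adjusted p = 0.24), and Psme3, the most abundant of the list, -0.53, or 0.41 without blood 1.

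Immunoproteasome subunits take the place of constitutive ones, Psmb9 that of Psmb6, Psmb10 that of Psmb7 and Psmb8 that of Psmb5. None of the 7 constitutive beta subunits was called by edgeR (2 had an unadjusted p under 0.05), with Psmb6 at a log2 fold change of 0.88 (adjusted p = 0.053, and under 0.05 in 5 of 16 alternatives, DESeq2 among them), and Psmb7 at 0.59 (adjusted p = 0.077, and under 0.05 in 2 of 16). The ratio of Psmb9 to Psmb6 counts was 0.839 ± 0.299 in liver and 2.85 ± 0.833 in blood (SD, n = 3 each). That of Psmb10 to Psmb7 was 0.502 ± 0.0405 and 0.336 ± 0.0598. Neither ratio overlapped between the groups, which for Psmb9 to Psmb6 follows from the opposite separation of both genes in CPM. That of Psmb8 to Psmb5 was 6.25 ± 2.57 in liver and 7.89 ± 2.11 in blood, with overlap. Psmb9 lies head to head with Tap1, and their annotated ends overlap on opposite strands (Psmb9 from 34181987 to 34187764, Tap1 from 34187553 to 34197225). The ratio of Tap1 to Psmb9 counts was 4.42 ± 1.27 in liver and 3.53 ± 0.233 in blood, with overlap. Of 5 cytosolic peptidase genes tested, 2 were called higher, Lap3 and Thop1, at 5.89 and 1.94 CPM in liver. The call of Lap3 ended without liver 3 or blood 2 (adjusted p = 0.065 and 0.053), and that of Thop1 without liver 3 and blood 1 together (0.064). Npepps, the most abundant, had a log2 fold change of -0.07.

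Among 17 regulators of class I transcription 3 were called higher and 4 lower, with a median of -0.41. Of all tested genes, 17.4% were called higher and 14.2% lower. Nlrc5, the transactivator of class I promoters, stood at 38.8 ± 8.62 CPM for liver against 26.0 ± 10.7 CPM for blood and did not pass (log2 fold change 0.57, edgeR adjusted p = 0.19). Irf1, an interferon-induced activator, had a log2 fold change of -0.50 (edgeR adjusted p = 0.11). Irf2 and Creb1 were lower, with log2 fold changes of -0.87 and -0.91, and Irf9 (-1.03) was called at an adjusted p of 0.047 with overlapping groups. Irf9 was called in 8 of 16 alternatives, and the call ended with RLE or upper-quartile factors (0.051 and 0.059), at a minimum count of 50 (0.060), when liver 1, liver 3, blood 1 or blood 2 was omitted (0.059 to 0.15) and without liver 3 and blood 1 together (0.16). The call of Irf2 ended when liver 2, liver 3 or blood 1 was omitted (0.060 to 0.086), and without liver 3 and blood 1 together that of Irf2 and Creb1 (0.20 and 0.077).

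The interferon receptor genes Ifnar1 and Ifnar2 were higher, by 0.78 and 0.84 on the log2 scale (edgeR adjusted p = 0.014 and 0.020), and leaving out liver 1 or blood 1 ended both calls, as did blood 3 for Ifnar1 and liver 2 for Ifnar2 (0.052 to 0.085) and liver 3 and blood 1 together for Ifnar1 (0.055). Irf8, a factor of macrophages, dendritic and B cells, was higher. It had 45.1, 32.8 and 77.8 CPM in liver 1, 2 and 3 and 14.6, 13.1 and 2.35 CPM in blood 1, 2 and 3 (log2 fold change 2.38, edgeR adjusted p = 0.033), and the call ended when liver 1, liver 3 or blood 2 was omitted (0.067 to 0.092) and without liver 3 and blood 1 together (0.083). Its liver order was again that of the macrophage, monocyte and dendritic cell marker sums, whose part was not tested. Jak1, the most abundant regulator listed, had a log2 fold change of -0.41 (edgeR adjusted p = 0.19).

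Of 6 tested myeloid receptors of the PIR, LILR and Ly49 families, some of which bind class I, 2 were called lower and 0 higher. Pirb, an inhibitory receptor that binds class I, stood at 476 ± 106 CPM for liver against 1051 ± 224 CPM for blood (log2 fold change -1.14 ± 0.25, SE; edgeR adjusted p = 0.0078). Klra2, of the Ly49 family, had a log2 fold change of -1.12 (edgeR adjusted p = 0.0067). Lilr4b, the most abundant, averaged 2085 and 1573 CPM and did not pass (log2 fold change 0.41, edgeR adjusted p = 0.45), but was called higher without blood 2 (0.98, adjusted p = 0.038). Deposited values of Pirb and Lilr4b were fractional in all 6 libraries, so their reads can be split with near-identical family members. Those of Klra2 were whole in all 6. MHC class II presentation genes, which mark antigen-presenting cells, were called higher in 1 of 10, H2-DMb1, a call that leaving out liver 1, 2 or 3 or blood 1 ended (edgeR adjusted p 0.064 to 0.0895), as did liver 3 and blood 1 together (0.13). Cd74, the invariant chain, stood at 207 ± 24.6 CPM for liver against 106 ± 95.9 CPM for blood (edgeR adjusted p = 0.36).

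**Figure D4:**
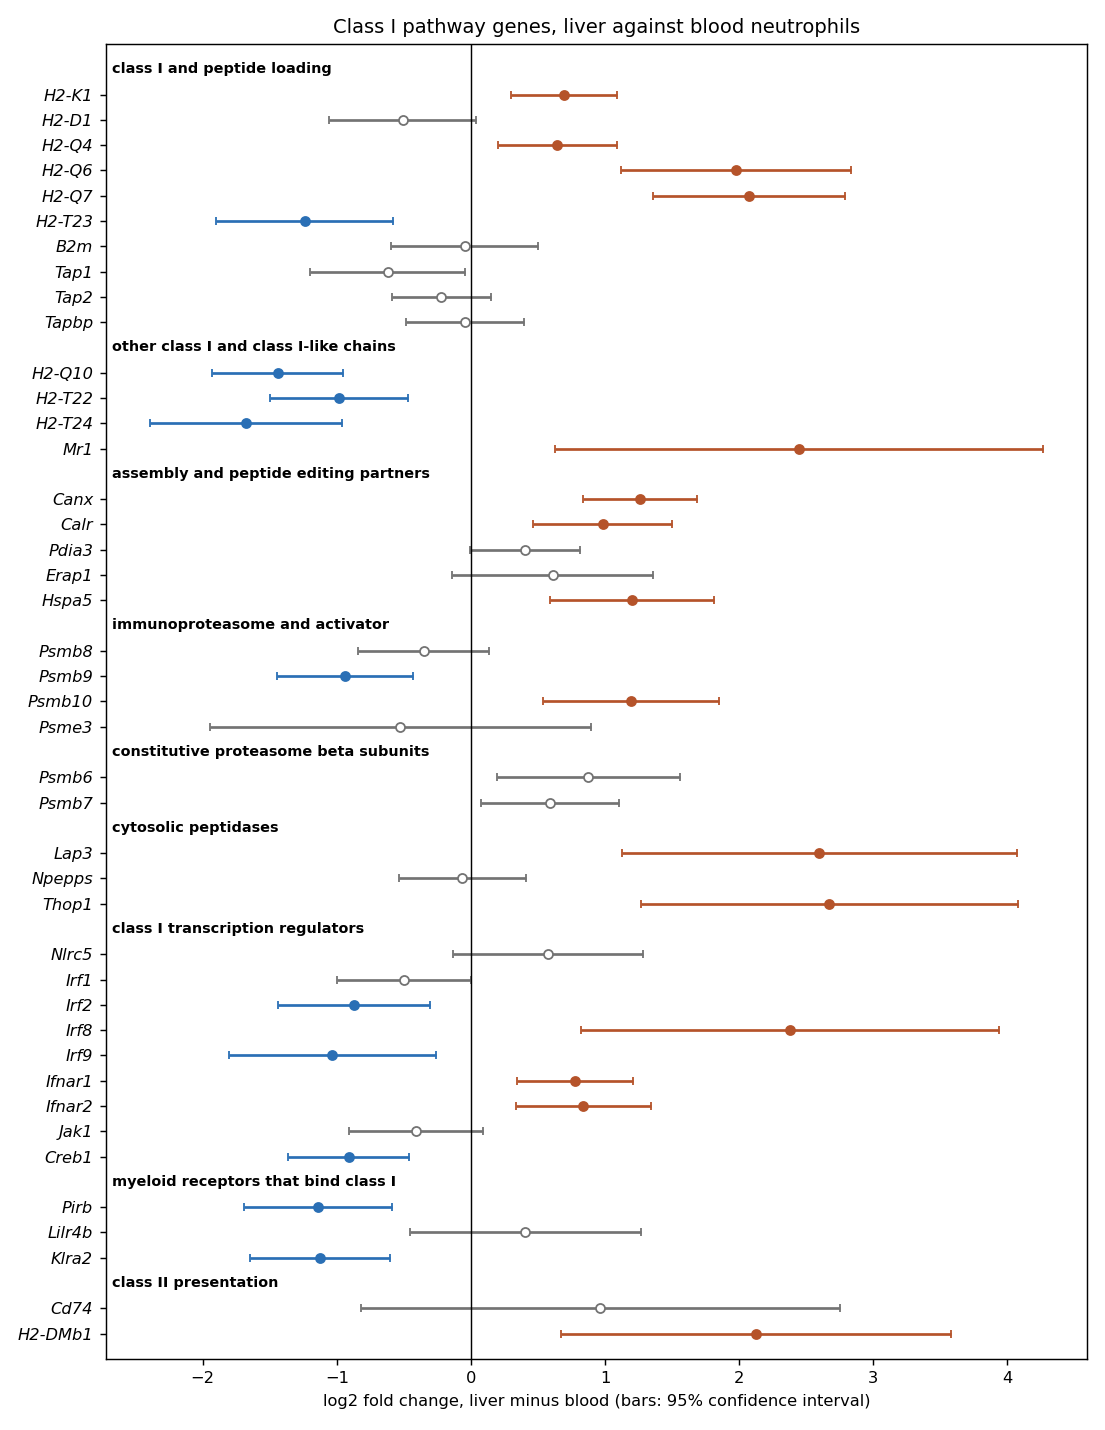
Log2 fold change (liver minus blood) with its 95% confidence interval for the 10 genes and the named genes of the pathway lists; filled orange points were called higher and filled blue points lower (adjusted p under 0.05), and open grey points did not pass. H2-K1, H2-Q4, H2-Q6 and H2-Q7 stand on the right and H2-T23, H2-Q10, H2-T22 and H2-T24 on the left.

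The genes whose log2 CPM over the 6 libraries correlated most closely with that of H2-K1, among 6781 genes with a mean of at least 10 CPM, were Txnl1, Sod2, Sqstm1, Icam1 and Tmem132a (Pearson r 0.996 to 0.998). Their own log2 fold changes ran from 1.65 for Sqstm1 to 4.35 for Icam1. For Tap1 the closest were Ptpn12, Itfg1, Zfp68, Thoc2 and Tbpl1 (r 0.992 to 0.997), with log2 fold changes from -0.66 to -0.32, none of them called by edgeR (adjusted p 0.11 to 0.24). All points come from the same 6 libraries, which differ in group, so such values describe likeness only. Among the 10 genes, H2-Q6 and H2-Q7 were the closest pair (r = 0.996, with shared reads), and H2-D1 and H2-T23 followed (r = 0.963).

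**Figure D5:**
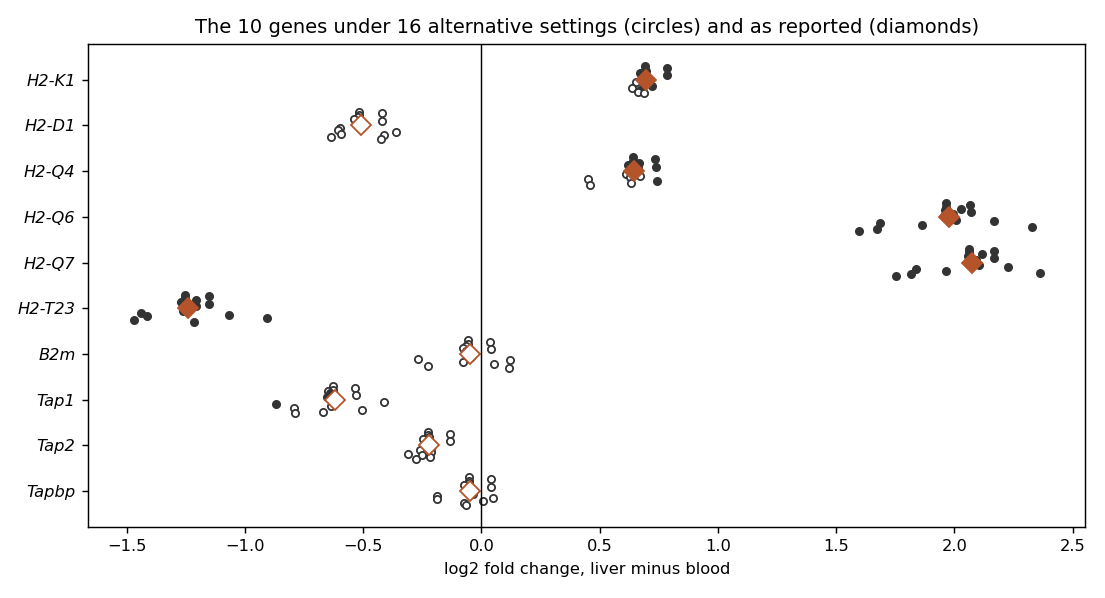
Log2 fold change (liver minus blood) of the 10 genes as reported (diamonds) and under 16 alternative settings (circles), filled where the adjusted p was under 0.05. H2-Q6, H2-Q7 and H2-T23 are filled throughout, H2-K1 in 12 and H2-Q4 in 10 of the 16, and B2m and Tapbp lie on both sides of 0.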

How the data were processed

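RNA of Ly6G-selected neutrophils was sequenced in 3 liver and 3 blood libraries. Each deposited file gives expected counts by gene, made by the authors with RSEM. STAR, FastQC 0.11.5, limma and the build GRCm38 are further names in the submitters' processing notes. Other tool versions, filters and the use of strand were not given in the sources used here. The expected counts were rounded, filtered with filterByExpr (minimum count 10, minimum total 15), scaled by TMM and compared between liver and blood by the quasi-likelihood test of edgeR 4.0.16 in R 4.3.3, with robust dispersion and no replicate block. Benjamini-Hochberg adjustment ran over 13458 genes, and genes were called at an adjusted p under 0.05. Standard errors come from the F statistic, and levels are CPM on TMM-scaled library sizes, where 3 counts equal 0.18 to 0.26 CPM (counting error only). By identifier, 98.9% of rows matched GENCODE M21, which gave coordinates, exon lengths and transcripts. All 10 genes passed the filter. The fit was also run on simulated counts, which held no shared reads or mixed cells, so that run does not bear on those limits. Libraries within a group differed by more than sampling noise (chi-square per degree of freedom 52.1 to 79.0), and nothing in the labels beyond a stated n of 3 says that they were separate mice, so the p-values cover the spread between libraries, which may be technical.

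Genes are named by a rule: the 10 genes, the most abundant tested gene of each pathway list and up to 4 of its called genes with the widest fold change and at least 10 CPM on average in 1 group, and the 5 genes most like H2-K1 and Tap1. Psmb8, Psmb6, Nlrc5, Irf1, Irf2, Pdia3, Erap1, Ifnar1, Ifnar2, H2-DMb1, Lap3, Thop1 and Mr1 were added after their values were seen, as were the promoter words searched. The 10 genes and the lists were chosen with earlier results of these data known. Of the listed genes, Nrdc and Pira6 matched no row. A regulator that the rule would name is not reported here. Alternatives were edgeR with RLE or upper-quartile factors, DESeq2 1.42.0, limma 3.58.1 voom, no filter or a minimum count of 50, a replicate block, removal of mitochondrial and rRNA-overlapping genes, summed rows of one symbol, and libraries left out.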

Additional observations from a re-analysis of the deposited data

How the results depend on the processing

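The count of the 10 genes called higher, 4, was 2 to 4 when 1 library was left out and 2 without liver 3 and blood 1 together. The count called lower, 1, was 1 to 2 when 1 library was left out, 2 with no filter on low counts and 3 with a replicate block. Over all tested genes the lower calls went from 1916 to 2216 with no filter (26614 genes tested) and to 2312 with the block. With 1 library left out, 1732 to 1993 of all tested genes were called higher and 1323 to 1626 lower. The block added H2-D1 and Tap1 to the lower calls (edgeR adjusted p = 0.040 and 0.014), ended the calls of Irf8 and Mr1 (0.13 and 0.066) and added calls for Psmb6, Itfg1 and Zfp68 (0.028, 0.032 and 0.046). Same-numbered liver and blood libraries correlated in their deviations from the group means at 0.05, 0.16 and 0.02. The other pairs had -0.18 to 0.12. Correlations this weak cannot show whether the numbers pair the samples, which the labels do not say. Liver 3 and blood 1 were each closest to the other (0.12), so not every sample was closest to its own number. Over all tested genes, 2336 were called higher and 1916 lower, and 1631 and 1195 without liver 3 and blood 1, where fewer samples were fitted. No scaling alternative moved the median of all genes by more than 0.09. The 10 genes kept their sign in all 16 alternatives except B2m and Tapbp, which were near 0. B2m had a log2 fold change of 0.037 with upper-quartile factors and 0.040 at a minimum count of 50, -0.27 to 0.12 with 1 library left out and 0.11 without liver 3 and blood 1. Tapbp had 0.040 with upper-quartile factors, 0.042 at a minimum count of 50 and -0.19 to 0.050 with 1 library left out. Npepps had 0.020 and 0.022 in those settings, -0.31 to 0.044 with 1 library left out and 0.00088 without liver 3 and blood 1, and Psme3 -0.91 to 0.41 with 1 library left out and 0.67 without liver 3 and blood 1. The cause of these shifts was not tested. With 3 libraries a group, the test left the differences in H2-D1, B2m, Tap2 and Tapbp unresolved. For Tap2 the libraries of each group lay close together, and the difference was small (log2 fold change -0.22). All 10 genes had at least 60 counts in each library, and the heavy chains, the Q genes most, are limited by reads shared between genes.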
